A study of Mus musculus with 14 samples.

Results

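The interstitial collagens described here are 10 genes, Col1a1, Col1a2, Col3a1, Col5a1, Col5a2, Col6a1, Col6a2, Col6a3, Col8a1 and Col14a1, taken by name from the 54532 genes of a count table of mouse heart RNA. Total RNA of cardiac tissue was sequenced in 14 libraries, 1 per mouse. All mice were wild-type (WT) male C57BL/6J animals, 8 weeks old at the start, and the irradiated ones had received 30 Gy of cobalt-60 gamma rays to the chest. Control hearts taken at 1 day are called Control_1d (n = 3), irradiated hearts at 1 day IRR_1d (n = 3), control hearts at 6 weeks Control_6w (n = 4) and irradiated hearts at 6 weeks IRR_6w (n = 4). The mice of the 6-week groups were thus older at collection than those of the 1-day groups, and age, time and collection cannot be told apart between the time points. All animals were of 1 sex and 1 strain.

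Collagens are triple helices of 3 chains. Type I collagen, built from the products of Col1a1 and Col1a2, and type III collagen, built from the product of Col3a1, form the thick and thin fibrils between heart muscle cells, and type V collagen, with chains from Col5a1 and Col5a2, sits inside those fibrils and sets their diameter. Type VI collagen, with chains from Col6a1, Col6a2 and Col6a3, forms beaded filaments next to cell surfaces. Col8a1 encodes a short-chain collagen of vessel walls and remodelling tissue, and Col14a1 a fibril-associated collagen that binds the surface of type I fibrils. In the heart these chains are made mainly by fibroblasts, and their accumulation is the hallmark of fibrosis, a known late consequence of chest irradiation.

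All 10 genes lay at the coordinates of the GENCODE M21 annotation of GRCm38 (mm10), and all 10 passed the filter on low counts. Col3a1 (chr1:45311538-45349706, plus strand) and Col5a2 (chr1:45374321-45503282, minus strand) are neighbours with 24615 bases between them. Col6a2 (chr10:76595762-76623630) and Col6a1 (chr10:76708792-76726168) lie 85162 bases apart on the minus strand. Col1a1 spans chr11:94936224-94953042 and Col1a2 chr6:4504814-4541544, both on the plus strand. Col5a1 spans chr2:27886425-28039514 and Col14a1 chr15:55307750-55520803, also on the plus strand, whereas Col6a3 (chr1:90765923-90843971) and Col8a1 (chr16:57624258-57754737) are on the minus strand. Other annotated genes shared exonic bases with 2 members. They took 1.44% of the exonic bases of Col3a1, on the same strand (Gm47302), and 2.5% of those of Col5a1, on the opposite strand, so reads from those bases may belong to either gene.

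RefSeq promoter windows of GRCm38.p6 were at hand for 7 members, Col3a1, Col6a3, Col5a1, Col1a2, Col6a2, Col6a1 and Col8a1, and Col1a1, Col5a2 and Col14a1 are named only. The 140 bases before the start site are printed for Col3a1 and Col8a1, whose 6-week differences were among the larger ones, and for Col5a1 and Col6a3, whose 6-week differences were smaller. Capitals mark the motifs TATAAA (the core of a TATA box) and GGGCGG (a GC box, written CCGCCC where it lies on the other strand), which were searched on both strands together with CCAAT.
Col3a1 (chr1:45311398-45311537, plus strand): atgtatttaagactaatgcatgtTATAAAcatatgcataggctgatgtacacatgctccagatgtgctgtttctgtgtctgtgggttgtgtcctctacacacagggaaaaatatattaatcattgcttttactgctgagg
Col8a1 (chr16:57754738-57754877, minus strand): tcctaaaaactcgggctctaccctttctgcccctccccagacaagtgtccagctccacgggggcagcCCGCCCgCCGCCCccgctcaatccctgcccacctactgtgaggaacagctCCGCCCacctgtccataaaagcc
Col5a1 (chr2:27886285-27886424, plus strand): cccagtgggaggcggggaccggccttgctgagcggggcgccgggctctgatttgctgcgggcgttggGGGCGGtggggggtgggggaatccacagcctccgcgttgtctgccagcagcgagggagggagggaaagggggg
Col6a3 (chr1:90843972-90844111, minus strand): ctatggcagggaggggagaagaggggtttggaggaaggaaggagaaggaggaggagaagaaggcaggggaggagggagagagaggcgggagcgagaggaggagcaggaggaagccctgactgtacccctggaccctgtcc
Col3a1 held TATAAA with its first base 117 bases before the start and none of the other motifs. Col8a1 held GGGCGG 4 times in the 250 bases before its start, 3 of them within the printed bases, and Col5a1 held it 2 times, 1 of them within the printed bases. Col6a3 and Col6a1 held none of the 3 motifs, and Col1a2 held CCAAT 1 time and GGGCGG 2 times. Col6a2 had 2 windows in the table, with GGGCGG 3 times in one and 1 time in the other and neither of the other motifs. Among 32851 mouse promoter windows of the same length, 12.4% held TATAAA, 32.7% GGGCGG and 33.8% CCAAT. A match describes the letters of the window and is no evidence of binding.

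The libraries held 13336746 to 16837265 counts, and each member had between 191 and 23850 counts in every library, so counting error was small beside the spread between hearts. Transcript levels are given as TMM-scaled CPM (counts scaled to a library of 1000000), and levels of different genes are compared per length, as FPKM, which also divides by gene length. The tissue was bulk, and more cells of a type and more RNA per cell cannot be told apart. Transcripts of other tissues moved with 3 libraries. IRR_1d replicate 3 had 1943 CPM over 5 atrial markers (11.4 and 171 CPM in the other IRR_1d libraries), 289 CPM over 2 brown fat markers and 48.1 CPM over 5 cartilage markers. Control_6w replicate 3 had 2771 CPM over 7 thymus markers and 679 CPM over the brown fat markers, with 4164 CPM over 6 cardiomyocyte markers against a group median of 23704. IRR_6w replicate 1 had 2831 CPM over the atrial markers, 924 CPM over the brown fat markers and 354 CPM over 4 lung epithelium markers. Control_1d replicate 2 also stood apart in its group on the atrial markers, with 536 CPM against 18.1 and 31.8 CPM, and without it the members' median log2 fold change was 0.643 at 1 day and -0.687 between the control groups. Control_1d replicate 1 had the fewest genes with at least 10 counts (12917, against up to 16188). The main results are given with and without these libraries where leaving them out changed a direction or a call.

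Per length, Col3a1 was the most abundant member, with a mean of 65.5 FPKM over the 14 libraries, followed by Col1a1 (38.6 FPKM), Col6a1 (28.7 FPKM) and Col1a2 (26.9 FPKM). Col6a2 (13.4 FPKM) and Col5a2 (10.7 FPKM) came next, then Col8a1 (9.89 FPKM), Col5a1 (8.89 FPKM), Col14a1 (8.27 FPKM) and Col6a3 (7.6 FPKM). This order is over all groups, and within both control groups Col6a1 had more than Col1a1 (means of 29.1 against 24.1 FPKM in Control_1d and 18.4 against 17.8 FPKM in Control_6w). In Control_1d hearts Col3a1 ran from 44.3 to 62.6 FPKM and did not overlap with Col6a1, the next in that group, at 16.3 to 40.7 FPKM. Below it, neighbours in the order overlapped within Control_1d, such as Col1a1 at 17.7 to 33.2 FPKM and Col1a2 at 13.1 to 22.5 FPKM. In IRR_6w hearts Col3a1 (69.6 to 123 FPKM) and Col1a1 (41.1 to 73.6 FPKM) overlapped.

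At 6 weeks all 10 members were higher in irradiated than in control hearts. The comparison asks which transcripts differ once the chronic phase of the injury is reached. The log2 fold changes of the members had a median of 1.32, from 0.55 for Col6a3 to 1.94 for Col8a1, while the median of all 16034 genes tested was -0.09. Summed over the 10 members, transcripts amounted to 963 ± 303 CPM in Control_6w (SD, n = 4) and 2371 ± 578 CPM in IRR_6w (SD, n = 4), and the groups did not overlap (528 to 1222 against 1846 to 2950 CPM).

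No member was called, that is, none had a fold change over 2 or under 0.5 together with an edgeR adjusted p under 0.05; over all genes 38 were called higher and 3 lower (0.256%). The edgeR adjusted p of the members ran from 0.061 to 0.764. At an unadjusted p under 0.05 edgeR found 8 of 10 members higher, against 5.43% of all genes. The exceptions were Col6a2 and Col6a3. In 6 of 10 members every irradiated heart lay above every control heart, which held for 4.07% of all genes. DESeq2 and limma voom called 4 members each, Col3a1, Col5a2, Col8a1 and Col14a1, while over all genes DESeq2 called 1.19% and limma voom 3.17%.

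**Figure D1:**
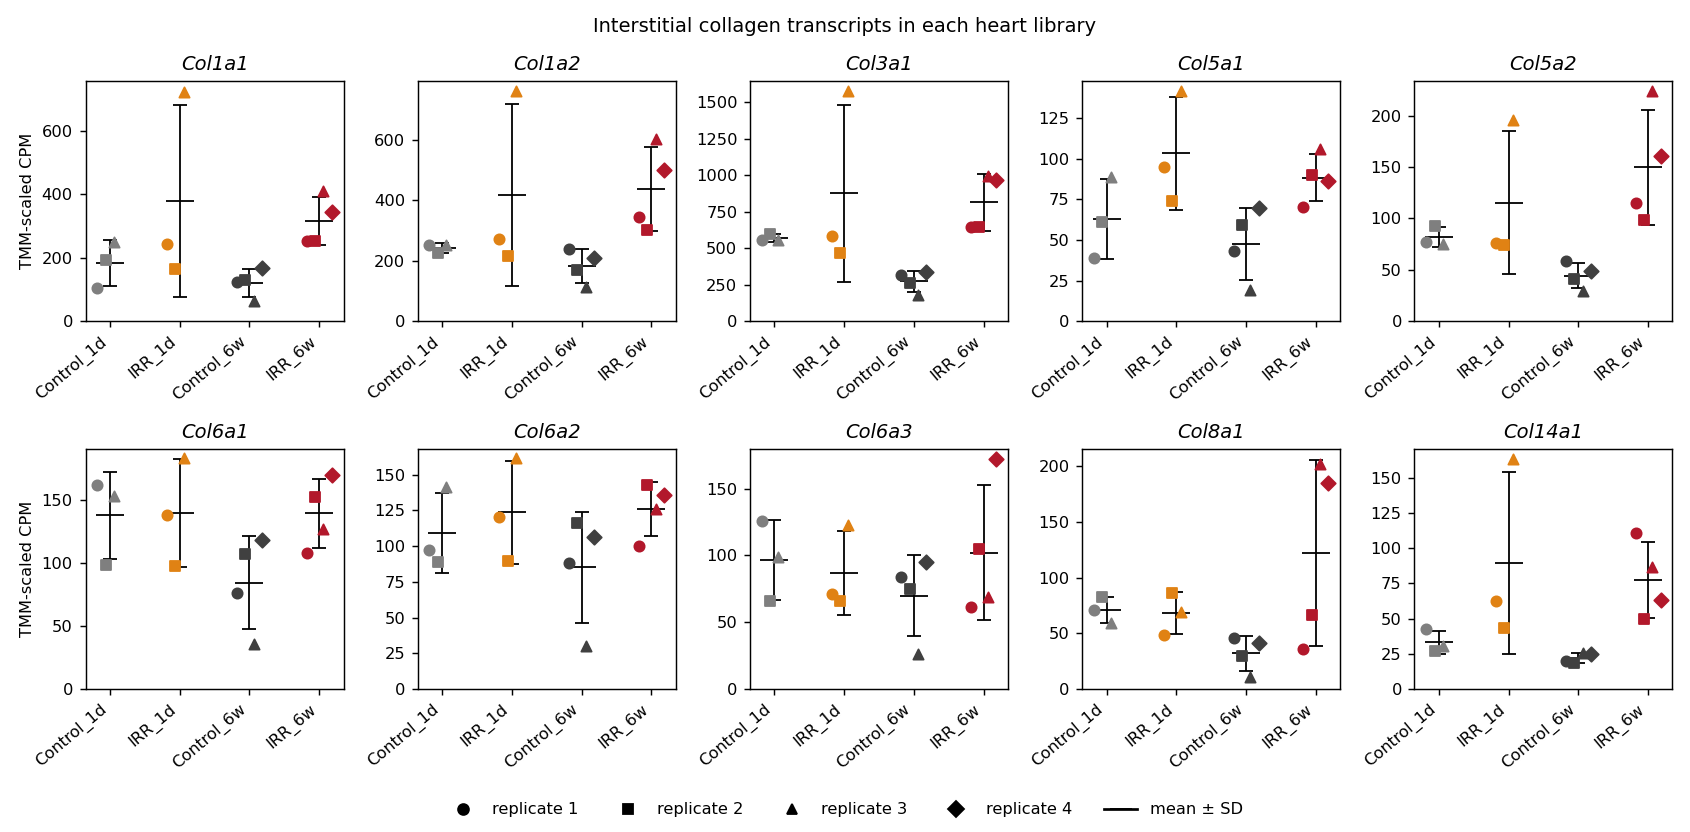
Each panel shows 1 interstitial collagen, with TMM-scaled CPM from 0 on the vertical axis and the 4 groups on the horizontal axis. Points are libraries, with the symbol giving the replicate number, and bars are mean ± SD; IRR_1d replicate 3 (orange triangle) is the highest library of its group in 9 of 10 panels, and in 9 of 10 panels Control_6w replicate 3 is the lowest of its group.

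Among the fibril-forming chains, Col5a2 had the smallest p of all members. Its levels were 58.1, 41.3, 29.3 and 49.1 CPM in the control hearts at 6 weeks and 116, 98.4, 224 and 160 CPM in the irradiated ones. The groups did not overlap, and the lowest irradiated heart had more than the highest control. The log2 fold change was 1.75 ± 0.36 (SE), with a 95% interval of 0.98 to 2.52 and an edgeR adjusted p of 0.061. Over 23 alternative settings that adjusted p ran from 0.00064 to 0.231, and 8 settings called the gene.

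Col3a1, the chain of type III collagen, was at 314, 263, 176 and 340 CPM in Control_6w and at 645, 643, 997 and 967 CPM in IRR_6w. Again no irradiated heart overlapped with a control. The log2 fold change was 1.57 ± 0.37 (SE; 95% interval 0.78 to 2.37; edgeR adjusted p = 0.109, 0.00281 to 0.324 over the alternatives). The 2 chains of type I collagen moved by similar amounts. Col1a1 was at 125, 130, 62.5 and 169 CPM in Control_6w and at 254, 254, 410 and 345 CPM in IRR_6w, a difference of 1.38 ± 0.45 (SE) on the log2 scale with an adjusted p of 0.289 by edgeR. Col1a2 was at 240, 170, 113 and 210 CPM in Control_6w and at 345, 303, 604 and 501 CPM in IRR_6w, a difference of 1.26 ± 0.39 (SE) on the log2 scale with an adjusted p of 0.242 by edgeR. For both genes the groups were separate, and irradiated replicates 3 and 4 were the highest. Col5a1 differed least among the fibrillar chains, with 18.9 to 69.9 CPM in Control_6w against 70.5 to 106 CPM in IRR_6w (0.89 on the log2 scale, adjusted p = 0.48 by edgeR).

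Outside the fibrils, Col14a1, the collagen on the fibril surface, was at 20.1, 18.4, 25.4 and 25.0 CPM in Control_6w and at 111, 49.5, 86.7 and 63.3 CPM in IRR_6w. The control hearts were close to each other and every irradiated heart was above them. The log2 fold change was 1.80 ± 0.38 (SE; 95% interval 0.99 to 2.62; edgeR adjusted p = 0.0682, 0.00168 to 0.26 over the alternatives). Col14a1 was the 1 member in which Control_6w replicate 3, the library with thymus and fat transcripts, was the highest of the controls and not the lowest.

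With all libraries Col8a1 had the largest log2 fold change, 1.94 ± 0.52 (SE; 95% interval 0.83 to 3.05; edgeR adjusted p = 0.153). Without IRR_6w replicate 3 its value was 1.58, below the largest of the members, 1.75. The levels of Col8a1 were 46.2, 29.5, 10.8 and 41.3 CPM in Control_6w and 35.7, 66.4, 202 and 185 CPM in IRR_6w. Irradiated replicates 3 and 4 were far above all controls, replicate 2 was slightly above them, and replicate 1 lay within their range. The mean of the irradiated group, 122 CPM, lay above 2 of its 4 hearts.

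The type VI chains differed less. Col6a1 was at 36.04 to 118 CPM in Control_6w and at 108 to 170 CPM in IRR_6w (0.72 ± 0.34 SE on the log2 scale, adjusted p = 0.565 by edgeR). Col6a2 was at 29.8 to 117 CPM against 100 to 143 CPM (0.56 ± 0.35 SE on the log2 scale, adjusted p = 0.702 by edgeR), and Col6a3 at 26.2 to 94.9 CPM against 61.3 to 172 CPM (0.55 ± 0.41 SE on the log2 scale, adjusted p = 0.764 by edgeR). For all 3 chains the groups overlapped. The 95% intervals of Col6a2 (-0.18 to 1.31) and Col6a3 (-0.33 to 1.43) included 0 and also a doubling. Without Control_6w replicate 3 the log2 fold change of Col6a2 was 0.282 and that of Col6a1 0.474, and without IRR_6w replicate 4 that of Col6a3 was 0.168.

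**Figure D2:**
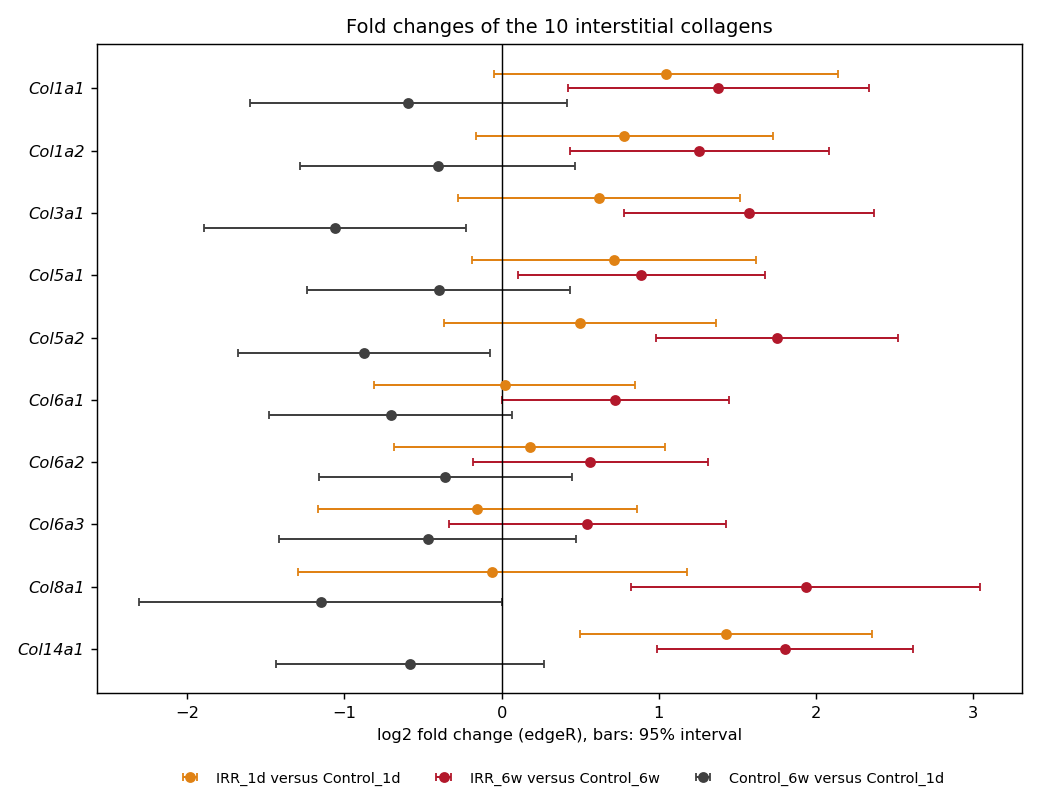
The horizontal axis gives the edgeR log2 fold change of each of the 10 members (vertical axis) in 3 comparisons, with bars for the 95% interval. All 10 points of IRR_6w versus Control_6w lie right of 0 (median 1.32) and all 10 of Control_6w versus Control_1d lie left of it (median -0.59).

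The number of members called at 6 weeks depended on single libraries. It was 3 without IRR_1d replicate 3 (Col3a1, Col5a2 and Col14a1), where 0.331% of all genes were called, and 2 without IRR_6w replicate 1 (Col5a2 and Col8a1), where 0.627% were. Without the 3 libraries with transcripts of other tissues it was 4 (Col3a1, Col5a2, Col8a1 and Col14a1), with a median log2 fold change of 1.22, beside 1.13% of all genes. Leaving out Control_1d replicate 1 as well gave 6, adding Col1a1 and Col1a2, beside 2.2% of all genes, a setting chosen after seeing the data. In each of the 23 settings all 10 members stayed higher in IRR_6w.

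Control hearts differed between the time points in the opposite direction, and this lower baseline at 6 weeks stands in the same Control_6w libraries as the comparison above. All 10 members were lower in Control_6w than in Control_1d, with a median log2 fold change of -0.59, from -1.15 for Col8a1 to -0.36 for Col6a2, while the median of all genes was 0.12. The member sum was 1587 ± 97.7 CPM in Control_1d (SD, n = 3). Its 3 libraries ran from 1528 to 1700 CPM, above the 1222 CPM of the highest Control_6w heart. No member and no gene at all was called by edgeR (0%). At an unadjusted p under 0.05 edgeR found 567 genes higher and 280 lower (1.75%), among the latter 2 members, Col3a1 and Col5a2. DESeq2 called 16 genes higher and 12 lower and limma voom 24 and 34, with no member among them.

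Col3a1 was at 556, 599 and 553 CPM in Control_1d, so that every younger control heart was above the 340 CPM of the highest Control_6w heart. The log2 fold change was -1.06 ± 0.39 (SE; 95% interval -1.89 to -0.23; unadjusted p = 0.0161, edgeR adjusted p = 0.902). Col5a2 was at 77.1, 92.8 and 75.1 CPM in Control_1d against at most 58.1 CPM in Control_6w (-0.88 ± 0.38 SE on the log2 scale, adjusted p = 0.902 by edgeR). Col8a1 was at 70.6, 82.7 and 59.7 CPM against at most 46.2 CPM (-1.15 ± 0.54 SE on the log2 scale, adjusted p = 0.902 by edgeR). Together with Col14a1 these were the 4 members without overlap, which 2.54% of all genes showed in that direction. Col1a1 (log2 fold change -0.59), Col1a2 (-0.41), Col5a1 (-0.40), Col6a1 (-0.71), Col6a2 (-0.36) and Col6a3 (-0.47) overlapped between the control groups. Single libraries moved these values, which came nearest to 0 without Control_1d replicate 3 for Col5a1 (-0.0531) and Col1a1 (-0.284) and without Control_6w replicate 3 for Col6a2 (-0.0751), Col6a3 (-0.199), Col1a2 (-0.234) and Col6a1 (-0.457). With limma voom and sample weights the median of the members was -0.276. Col6a1 (-0.016) and Col5a1 (-0.0489) were then close to 0, and the direction of Col6a2 (0.1) and Col6a3 (0.22) was the opposite.

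Control_6w replicate 3, the library rich in thymus transcripts, had the lowest level of the 4 controls for 9 members and a member sum of 528 CPM. Without it the median log2 fold change between the control groups was -0.42 and 1 member had an unadjusted p under 0.05. Without it the 6-week irradiation difference had a median of 1.13. The part of the other tissue in these differences was not tested beyond leaving the library out.

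Because the 6-week irradiation difference and the baseline difference share the Control_6w libraries, IRR_6w was also set beside the younger controls, as levels only. Every IRR_6w heart was above every Control_1d heart for 5 members, Col1a1, Col1a2, Col3a1, Col5a2 and Col14a1, which held for 6.49% of all genes. For Col3a1 the lowest IRR_6w heart had 643 CPM and the highest Control_1d heart 599 CPM, a narrow gap. For Col1a1 the same values were 254 and 250 CPM. The other 5 members overlapped, among them Col8a1, with 35.7 CPM in the lowest IRR_6w heart and 82.7 CPM in the highest Control_1d heart. This set of levels crosses ages and was not tested.

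One day after irradiation, 8 members were higher and 2 lower in IRR_1d than in Control_1d, with a median log2 fold change of 0.56 against 0.06 for all genes. No member was called, with an edgeR adjusted p of 1.0 for each; 4 genes were called over the whole table (0.0249%), and DESeq2 and limma voom called no member. With limma voom the median was 0.207. Col14a1 was the only member with an unadjusted p under 0.05, against 1.94% of all genes that were higher at that level. It was also the only one without overlap, against 6.51% of all genes. It was at 42.4, 27.1 and 30.5 CPM in Control_1d and at 62.5, 43.3 and 163 CPM in IRR_1d, where the lowest irradiated heart was barely above the highest control. The log2 fold change was 1.43 ± 0.44 (SE; 95% interval 0.50 to 2.36; unadjusted p = 0.00527, edgeR adjusted p = 1.0).

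The 1-day differences of 4 fibrillar chains, Col1a1, Col1a2, Col3a1 and Col5a2, rested largely on IRR_1d replicate 3. Col1a1 was at 244, 164 and 724 CPM in IRR_1d against 105, 194 and 250 CPM in Control_1d. Col1a2 was at 271, 217 and 762 CPM against 253, 225 and 251 CPM. Col3a1 was at 585, 464 and 1574 CPM against 556, 599 and 553 CPM. In all 3 genes the third heart stood far above the rest, and the other 2 irradiated hearts lay in or near the range of the controls. The same library had 1690 CPM over the 6 activated fibroblast markers, against 283 CPM or less in the other IRR_1d hearts, besides its atrial, brown fat and cartilage transcripts.

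Without IRR_1d replicate 3 the median log2 fold change of the members at 1 day was -0.06, and no member had an unadjusted p under 0.05 in edgeR. Col3a1 (-0.11), Col5a2 (-0.12), Col6a1 (-0.22) and Col6a2 (-0.06) then turned to lower in irradiated hearts. Col14a1 stayed higher at 0.67 on the log2 scale or more in every alternative, and Col5a1 at 0.42 or more. The plot of the 1-day differences with and without single libraries shows these shifts.

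**Figure D3:**
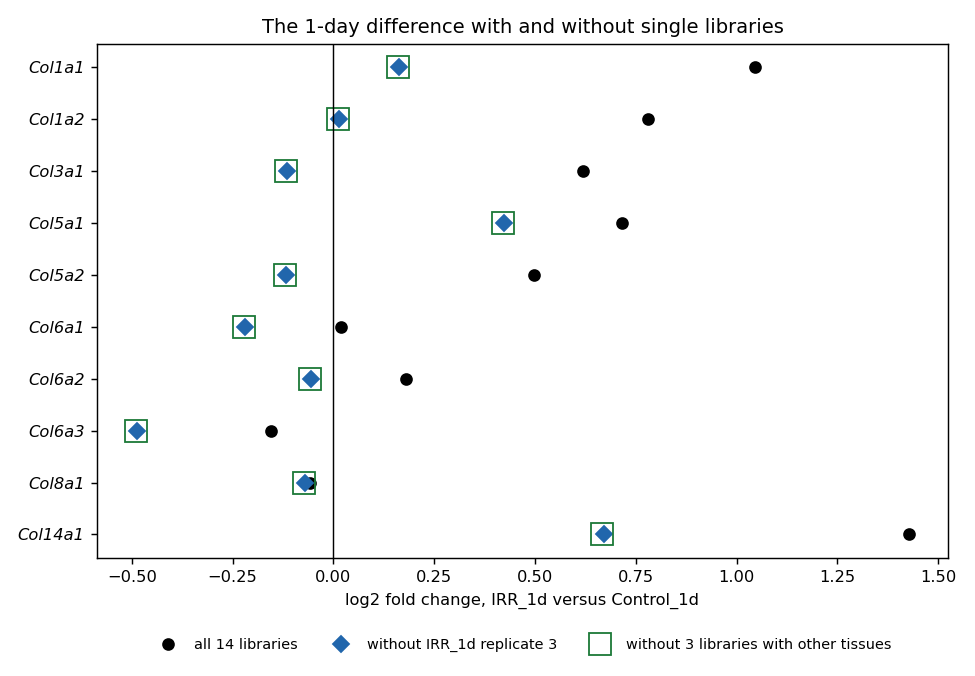
The horizontal axis gives the log2 fold change of IRR_1d versus Control_1d for each member (vertical axis), with all 14 libraries (black circles), without IRR_1d replicate 3 (blue diamonds) and without the 3 libraries with transcripts of other tissues (open green squares). Leaving out the 1 library moves Col1a1, Col1a2, Col3a1, Col5a2 and Col14a1 left by over 0.5, and the median of the members from 0.56 to -0.06.

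Between the irradiated time points the direction of several members depended on IRR_1d replicate 3 and on the method and scaling. With all libraries and TMM scaling, edgeR had 5 of the 10 members higher and 5 lower in IRR_6w than in IRR_1d, with a median log2 fold change of 0.01. None had an unadjusted p under 0.05 in edgeR, against 5.79% of all genes in either direction. On the same libraries limma voom had 9 of 10 higher (median 0.365). With library totals as the only scaling, edgeR also had 9 higher (median 0.297), where the all-gene median was 0.3. Col5a2 and Col8a1 were higher in IRR_6w in all 22 alternatives. No member was called by edgeR, DESeq2 or limma voom, and 6 genes were called over the table (0.0374%). Col8a1 had the largest difference, with 48.4, 86.6 and 69.5 CPM in IRR_1d (0.84 ± 0.55 SE on the log2 scale, adjusted p = 0.999 by edgeR). Its difference was 0.493 without IRR_6w replicate 3 and 1.15 without IRR_6w replicate 1. Without IRR_1d replicate 3 all 10 members were higher in IRR_6w, by 0.0654 to 0.992 on the log2 scale, with a median of 0.59. At an unadjusted p under 0.05 edgeR then found 2 members higher, beside 638 of 16920 genes. Without the 3 libraries with transcripts of other tissues all 10 were higher as well, by 0.161 to 1.16, with a median of 0.72. There were then 4 such members, beside 1071 of 15933 genes.

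The change in effect, the 6-week log2 fold change minus the 1-day one, was above 0 for all 10 members, with a median of 0.59 against -0.15 for all genes. No member was called by edgeR, DESeq2 or limma voom, and edgeR called no gene (0%), with 342 genes above 0 (2.13%) and 162 below at an unadjusted p under 0.05. DESeq2 called 40 genes higher and 5 lower, and limma voom 17 and 1. Among the members, Col8a1 (1.995 ± 0.774 SE, unadjusted p = 0.0216) and Col5a2 (1.25 ± 0.54 SE, unadjusted p = 0.0342) were below 0.05 before adjustment and had an edgeR adjusted p of 0.99. Without IRR_1d replicate 3 there were 6 such members and a median of 1.17, beside 415 of 16920 genes above 0 at that level. Without IRR_1d replicate 1 or IRR_6w replicate 3 there were no such members. All 4 groups enter this value, so the lower baseline of Control_6w is part of it.

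The members varied together to different degrees over the 14 libraries. Pearson's r of log2(CPM + 1) was highest between the neighbours Col3a1 and Col5a2 (0.963) and lowest between Col6a3 and Col14a1 (0.271). Among the 5 fibrillar chains it ran from 0.758 to 0.963 and among the 3 type VI chains from 0.816 to 0.932. The libraries share depth, tissue mix and group differences, and the values are descriptions over libraries that fall into groups.

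**Figure D4:**
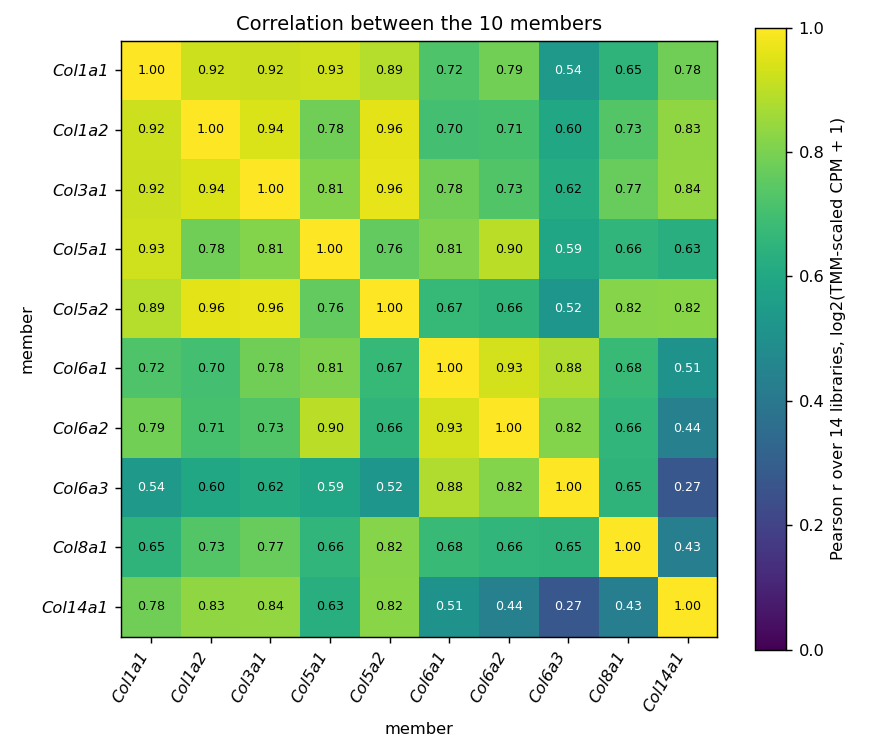
Cells give Pearson's r of log2(TMM-scaled CPM + 1) between each pair of the 10 members (both axes) over 14 libraries, with colour from 0 to 1. The highest value is 0.963 for Col3a1 with Col5a2 and the lowest 0.271 for Col6a3 with Col14a1.

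The proportions of the chains were compared within libraries, for pairs of chains of the same collagen type and for Col1a1/Col3a1, the main chains of the 2 most abundant fibrillar types. Log2 ratios of 5 chain pairs in 4 comparisons gave 20 exact permutation tests, two-sided, and none passed after Benjamini-Hochberg adjustment (all adjusted p at least 0.623). The smallest unadjusted p was 0.114, and groups of 3 and 3 cannot go below 0.1, groups of 3 and 4 below 0.0571 or groups of 4 and 4 below 0.0286. Col1a1/Col1a2 at 6 weeks had a log2 ratio of 0.47 ± 0.14 in IRR_6w (SD, n = 4) and 0.30 ± 0.32 in Control_6w (SD, n = 4; exact permutation p = 0.343). As a description, the level of Col3a1 per length over that of Col6a1 ran from 1.54 to 2.72 in Control_1d, from 1.9 to 3.84 in IRR_1d, from 1.1 to 2.18 in Control_6w and from 1.88 to 3.52 in IRR_6w, and that of Col8a1 over Col6a1 from 0.155 to 0.341 in Control_6w and from 0.185 to 0.893 in IRR_6w. All these ranges overlapped.

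Markers of the cells that make these chains were read beside them. With all libraries the 9 fibroblast markers summed to 1172 to 3659 CPM in Control_6w and 2034 to 3299 CPM in IRR_6w. Their summed level then overlapped widely while the member sum did not. Gsn and Dcn had the highest levels of the 9 markers in every library. No fibroblast marker was at 0 in any of the libraries with transcripts of other tissues. The member sum was 0.299 to 0.45 times the fibroblast marker sum in Control_6w hearts and 0.559 to 1.45 times in IRR_6w hearts. In Control_1d the ratio was 0.466 to 0.646, above all Control_6w hearts and overlapping with IRR_6w, and in IRR_1d it was 0.478, 0.438 and 0.994, the last in replicate 3. At 1 day the fibroblast markers summed to 2374 to 3276 CPM in Control_1d and 3143 to 4123 CPM in IRR_1d, with 8 of 9 higher, the 5 endothelium markers to 1249 to 1528 and 906 to 1089 CPM, with 4 of 5 lower, and the cardiomyocyte markers to 21873 to 37454 and 14089 to 30051 CPM. Only the endothelium sums of these 3 lists did not overlap, none of the fibroblast or endothelium markers was called, and the part of these cells in the 1-day collagen differences was not tested. No fibroblast marker of 9 was called at 6 weeks, and 7 of 9 were higher, with a median log2 fold change of 0.49. Without the 3 libraries with transcripts of other tissues 5 of 9 were higher, with a median of 0.204. Of the 9 markers 1, Meox1, was called (1.45 on the log2 scale, adjusted p = 0.0179 by edgeR). The sums were then lower in IRR_6w without overlap, at 2906 to 3659 CPM in Control_6w and 2034 to 2469 CPM in IRR_6w. In those hearts Gsn was at 1894, 1732 and 1429 CPM in Control_6w and 1061, 443 and 775 CPM in IRR_6w. Dcn overlapped, at 1267, 852 and 988 CPM against 920, 1049 and 858 CPM. The ratio to the member sum uses the same marker sum, and the part of Gsn in either was not tested.

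**Figure D5:**
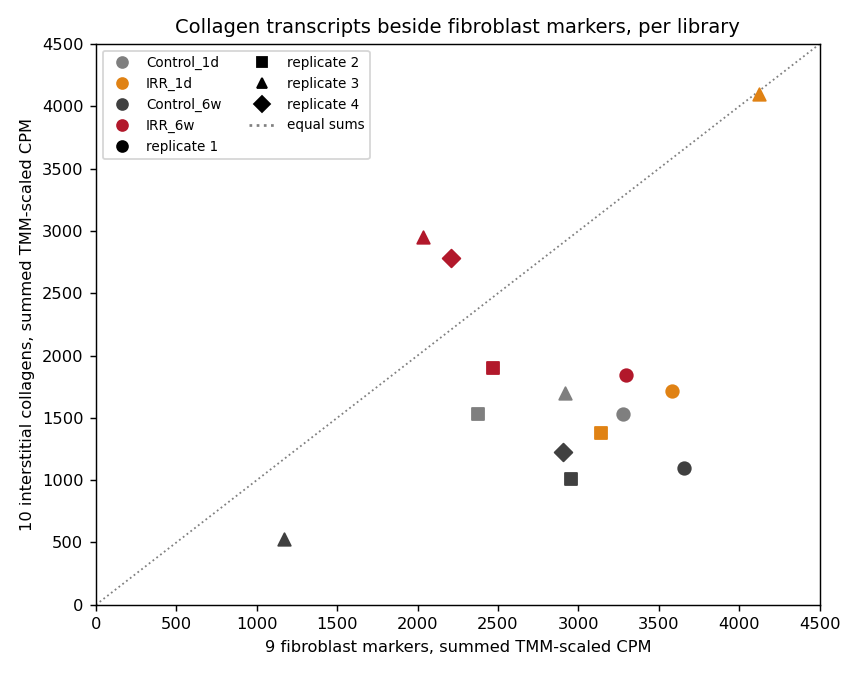
Each point is 1 library, with the summed TMM-scaled CPM of 9 fibroblast markers on the horizontal axis and of the 10 interstitial collagens on the vertical axis, both from 0, and a dotted line where both are equal. IRR_6w replicates 3 and 4 lie above the line, with 2034 and 2206 CPM of markers, and Control_6w hearts lie lowest, between 528 and 1222 CPM of collagens.

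The 6 activated fibroblast markers summed to 165 to 404 CPM in Control_6w and 376 to 805 CPM in IRR_6w. The highest control sum was that of Control_6w replicate 3, and without the 3 libraries with transcripts of other tissues the groups were separate (165 to 265 against 376 to 805 CPM), with 4 of 6 markers higher and 2 lower. This separation rested on Postn, since the other 5 markers summed to 112 to 187 CPM in Control_6w and 110.5 to 180.5 CPM in IRR_6w without those libraries. Of them Postn, a matrix protein of activated fibroblasts, was at 73.4 ± 33.5 CPM in Control_6w and 409 ± 263 CPM in IRR_6w (SD, n = 4 each; 2.48 on the log2 scale, adjusted p = 0.124 by edgeR, 0.00539 without the 3 libraries with transcripts of other tissues), and Acta2, the actin of myofibroblasts and smooth muscle, was at 149.5 ± 83.8 and 117 ± 71.8 CPM. The 6 cardiomyocyte markers summed to 4164 to 36519 CPM in Control_6w and 7890 to 25634 CPM in IRR_6w, and 5 of 6 were lower in IRR_6w with none called; without the 3 libraries the sums were 16630 to 36519 and 12377 to 25634 CPM, and 5 of 6 were again lower with none called. The 6 mesothelium markers were all higher in IRR_6w (33.97 to 409 against 46.9 to 94.3 CPM in sum, median log2 fold change 1.21) with none called. The highest sum was that of IRR_6w replicate 1, and without this library 3 of 6 were higher, with sums of 33.97 to 125 CPM in IRR_6w and a median log2 fold change of -0.0366. The 5 endothelium markers summed to 511 to 1615 CPM in Control_6w and 931 to 1559 CPM in IRR_6w. With all libraries 3 of 5 were lower and none was called. Without the 3 libraries 3 of 5 were again lower, and 1, Tek, was called (-1.09 on the log2 scale, adjusted p = 0.0403 by edgeR). The 5 mural cell markers summed to 566 to 1838 and 614 to 1790 CPM. In each case, with and without those libraries, 3 of 5 were lower and none was called. The part of these cell types in the collagen difference was not tested.

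The wider collagen pathway was read from lists of genes by role. Over all genes at 6 weeks 43.8% were higher, 0.256% were called and 5.43% were higher at an unadjusted p under 0.05. Counts are with all 14 libraries. Without the 3 libraries with transcripts of other tissues, edgeR also called Adamts2 (adjusted p = 0.021), Col18a1 (0.021), Loxl2 (0.0487), Mmp2 (0.0487) and Sparc (0.0089) among these genes, all higher in IRR_6w. Among 34 other collagen chains 24 could be tested, and none was called in any comparison; at 6 weeks 17 were higher and 7 lower, and 5 had an unadjusted p under 0.05, all higher. The 6-week count was 14 higher and 10 lower without the 3 libraries with transcripts of other tissues. Col18a1, a collagen of basement membranes, was at 18.8 ± 7.47 CPM in Control_6w and 71.6 ± 16.9 CPM in IRR_6w (SD, n = 4 each; edgeR adjusted p = 0.222). Col4a2, a chain of the main basement membrane network, was at 299 ± 134 and 682 ± 254 CPM (edgeR adjusted p = 0.369).

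Genes of procollagen synthesis and modification showed no common direction. At 6 weeks 14 of 22 were higher, 3 of them with an unadjusted p under 0.05, and none was called. Without the 3 libraries 14 of 21 were higher, and again none was called. Between the control groups 10 were higher and 12 lower (13 and 8 without the 3 libraries), and the 2 with an unadjusted p under 0.05 were higher at 6 weeks, opposite to the members. These were P4ha1, a subunit of the prolyl hydroxylase that stabilises the helix (71.4 ± 11.7 CPM in Control_1d, 184 ± 75.9 CPM in Control_6w; 1.37 on the log2 scale, adjusted p = 0.902 by edgeR), and Serpinh1, the collagen chaperone (213 ± 50.3 and 413 ± 185 CPM; 0.95 on the log2 scale, adjusted p = 0.902 by edgeR).

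All 13 genes of propeptide cleavage and cross-linking were higher in IRR_6w than in Control_6w, with a median log2 fold change of 0.77, and none was called; 3 had an unadjusted p under 0.05. Leaving out the 3 libraries gave 10 higher and 3 lower, with a median of 0.606. Adamts2, which removes the amino-terminal propeptide of fibrillar procollagens, was at 29.1 ± 10.5 CPM in Control_6w and 89.4 ± 28.4 CPM in IRR_6w (SD, n = 4 each; 1.62 on the log2 scale, adjusted p = 0.0709 by edgeR). It was lower in Control_6w than in Control_1d (55.7 ± 3.80 CPM; -0.94 on the log2 scale, adjusted p = 0.902 by edgeR), as the members were. Loxl2, a cross-linking lysyl oxidase, was at 20.2 ± 9.49 and 68.1 ± 41.9 CPM at 6 weeks (edgeR adjusted p = 0.208).

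All 12 fibril-associated proteins were higher in IRR_6w, with a median log2 fold change of 0.69, and 1 was called. The count was 9 higher and 3 lower without the 3 libraries, with a median of 0.522. Fn1, the fibronectin on which collagen fibrils assemble, rose from 90.5 ± 31.6 CPM in Control_6w to 549 ± 151 CPM in IRR_6w (SD, n = 4 each; 2.60 ± 0.39 SE on the log2 scale, adjusted p = 0.0188 by edgeR). The call was kept in 19 of 23 alternatives and lost without Control_6w replicate 1 (adjusted p = 0.086 by edgeR), Control_6w replicate 2 (0.115), IRR_6w replicate 3 (0.067) or IRR_6w replicate 4 (0.0567), settings in which edgeR called no gene higher, while the log2 fold change was 2.17 to 2.87 over all alternatives. Sparc, a collagen-binding protein of the matrix, was at 478 ± 128 and 1446 ± 600 CPM (1.60 on the log2 scale, adjusted p = 0.1 by edgeR). At 1 day all 12 were higher too, with none called and a median log2 fold change of 0.919, while 55.1% of all genes were higher. At an unadjusted p under 0.05 edgeR found 5 of the 12 higher at 1 day, against 1.94% of all genes. Without IRR_1d replicate 3 the 1-day count was 7 higher and 5 lower, with a median of 0.149, and none had an unadjusted p under 0.05 in edgeR.

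Of 14 genes of collagen breakdown and its inhibitors, 11 were higher and 3 lower at 6 weeks, and without the 3 libraries 7 were higher and 7 lower. Timp4, an inhibitor of metalloproteinases found in the heart, fell from 100 ± 57.5 CPM in Control_6w to 14.3 ± 7.23 CPM in IRR_6w (SD, n = 4 each; -2.80 ± 0.53 SE on the log2 scale, adjusted p = 0.0468 by edgeR). The call was lost in 12 of 23 alternatives, with the 2 groups alone (adjusted p = 0.129 by edgeR) and without any 1 of 11 libraries (adjusted p = 0.0521 to 0.174 by edgeR), while the log2 fold change was -3.24 to -2.43 over all alternatives. The libraries whose removal kept the call were Control_6w replicate 3, IRR_1d replicate 3 and IRR_6w replicate 1. At 1 day it was at 49.8 ± 6.97 CPM in Control_1d and 10.9 ± 4.90 CPM in IRR_1d (edgeR adjusted p = 0.998). Mmp2, a gelatinase, was at 81.3 ± 23.4 CPM in Control_1d and 306 ± 81.0 CPM in IRR_1d (1.91 on the log2 scale, adjusted p = 0.365 by edgeR), and at 74.0 ± 30.0 and 193 ± 54.5 CPM at 6 weeks (1.38 on the log2 scale, adjusted p = 0.118 by edgeR).

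Among 9 collagen receptors none was called, 6 were higher at 6 weeks and 5 had an unadjusted p under 0.05, all higher. Without the 3 libraries 5 were higher and 4 lower, and 3 had an unadjusted p under 0.05. Itga2, the alpha chain of a collagen-binding integrin, was at 1.54 ± 0.27 CPM in Control_6w and 8.09 ± 4.56 CPM in IRR_6w (edgeR adjusted p = 0.0878). Of 12 tested genes of TGF-beta and fibrotic signals, 11 were higher at 6 weeks (10 without the 3 libraries) and 4 had an unadjusted p under 0.05, with none called. The ligand gene Tgfb2 was at 9.33 ± 2.88 CPM in Control_6w and 22.1 ± 5.71 CPM in IRR_6w (1.24 on the log2 scale, adjusted p = 0.201 by edgeR).

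The genes whose levels followed the mean of the 10 members most closely over the 14 libraries, by Pearson's r, were Dpysl3 (0.971), Adamts2 (0.954), Gpc6 (0.944), Fbn1 (0.926) and Tdrd7 (0.922), followed by Kirrel, Cd34 and Vcan (0.907 or more). Without the 2 libraries farthest from the median these values were 0.922, 0.916, 0.832, 0.884 and 0.836 for the first 5. For Kirrel, Cd34 and Vcan they were 0.834, 0.743 and 0.763. They describe likeness over libraries that share depth, group and tissue mix.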

How the data were processed

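Total RNA of cardiac tissue was extracted with TRIzol and sequenced as standard Illumina libraries. Per the labels and the study's methods, the authors used FastQC 0.11.8, Trim Galore 0.6.1 and STAR 2.5.0a with mm10, counted reads per gene with HTSeq and deposited raw counts with a gene length column; strandedness, counting mode and annotation release are not given in the sources used here. Groups came from the deposited labels, 1 library per mouse. The members and all gene lists were chosen with earlier results of these data known.

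The counts of 16034 genes that passed filterByExpr were fitted with edgeR 4.0.16 (R 4.3.3, TMM scaling, quasi-likelihood test, 1 model over the 4 groups), p-values were Benjamini-Hochberg adjusted over all tested genes, and a call needed a fold change over 2 or under 0.5 and an adjusted p under 0.05. Intervals of 95% use the model's degrees of freedom. FPKM was computed from counts, deposited lengths (equal to the exonic bases of GENCODE M21 for every member) and library totals. Ratios were tested with exact permutation tests (scipy 1.17.1). Text names all members, every called list gene and up to 2 per list and comparison with the smallest p, plus the 8 genes most correlated with the members, except for a gene that is not reported here. Alternatives were DESeq2 1.42.0, limma 3.58.1, other scalings, no filter, 2 groups only, a replicate block and leaving libraries out. Depth was 13336746 to 16837265 counts per library.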

Additional observations from a re-analysis of the deposited data

How the results depend on the processing

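Over the alternatives, members' fold changes kept their direction and side of the threshold in 218 of 220 values between the controls, 205 of 220 at 1 day, 189 of 220 between the irradiated groups and 205 of 210 for the change in effect. At 6 weeks 203 of 230 kept both, 27 became called and none turned. Members called at 6 weeks were 4 with DESeq2 (1.19% of all genes called), 4 with limma voom (3.17%), 3 without the filter (0.465%) and 1 with library totals (0.518%). They were 4 without the 3 libraries with transcripts of other tissues (1.13%), 6 without Control_1d replicate 1 as well (2.2%), and 0 to 3 without single libraries. Over all genes, the alternatives called 0 to 447 higher and 0 to 62 lower at 6 weeks (305 and 38 with DESeq2, 447 and 62 with limma voom), 0 to 35 and 0 to 6 at 1 day, 0 to 24 and 0 to 34 between the controls, 3 to 294 and 0 to 39 between the irradiated groups, and 0 to 40 and 0 to 5 for the change in effect; the cause was not tested. With library totals as the only scaling, the all-gene median moved by 0.23 at 6 weeks, 0.16 between the controls, 0.32 between the irradiated groups and 0.15 for the change in effect.

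Members with an unadjusted p under 0.05 at 1 day were 2 with DESeq2, library totals or no filter, and 0 to 4 without single libraries; the median was -0.0655 without the 3 libraries and -0.0623 to 0.842 without single ones. Between the controls they were 1 with library totals, 4 without the 3 libraries (beside 359 of 15933 genes lower) and 1 to 4 without single ones. Same-numbered libraries deviated together in 3 of 19 pairs (correlation -0.41 to 0.51). The labels do not say what the replicate numbers mean, and with 3 or 4 libraries per group these correlations cannot exclude a shared batch. A replicate block gave 4 members with an unadjusted p under 0.05 between the controls and 7 at 6 weeks. It turned Col6a2 (-0.058) and Col6a3 (-0.105) between the irradiated groups. Between the irradiated groups members with an unadjusted p under 0.05 were 1 with library totals or limma voom, 4 without the 3 libraries (median 0.72) and 0 to 2 without single ones (median -0.25 to 0.59). For the change in effect they were 6 without the 3 libraries, beside 760 of 15933 genes above 0 at that level, and 0 to 6 without single ones (median 0.32 to 1.17).

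Directions turned as follows. At 1 day, without the 3 libraries, Col3a1 (-0.12), Col5a2 (-0.12), Col6a1 (-0.22) and Col6a2 (-0.0581); with limma voom, Col5a2 (-0.0195) and Col6a3 (0.0352); without single libraries, Col3a1 (-0.11 to 0.94), Col5a2 (-0.12 to 0.76), Col6a1 (-0.22 to 0.25), Col6a2 (-0.055 to 0.442), Col6a3 (-0.486 to 0.0812) and Col8a1 (-0.24 to 0.15). Between the controls, with limma voom, Col6a2 (0.1) and Col6a3 (0.22). Between the irradiated groups, with library totals, Col3a1 (0.16), Col5a1 (0.0547), Col6a1 (0.28) and Col14a1 (0.0479), which stayed below the 0.32 shift of all genes; with limma voom, Col1a1 (0.34), Col3a1 (0.39), Col6a1 (0.19) and Col14a1 (0.12); without the 3 libraries, Col1a1 (0.72), Col3a1 (0.73), Col5a1 (0.16), Col6a1 (0.34) and Col14a1 (0.33). Without single libraries there, the ranges were -0.64 to 0.62 for Col1a1, -0.26 to 0.84 for Col1a2, -0.43 to 0.63 for Col3a1, -0.444 to 0.0654 for Col5a1, -0.23 to 0.24 for Col6a1, -0.18 to 0.26 for Col6a2, -0.15 to 0.56 for Col6a3 and -0.55 to 0.55 for Col14a1. For the change in effect, Col5a1 turned with limma voom (-0.00599), and single libraries gave -0.19 to 0.47 for Col5a1 and -0.0511 to 1.22 for Col1a1. Of the chain ratios, single libraries gave -0.10 to 0.53 for Col1a1/Col1a2 and -0.27 to 0.0371 for Col6a1/Col6a2 at 1 day, -0.52 to 0.11 for Col1a1/Col1a2 between the controls, and -0.174 to 0.0147 for Col1a1/Col3a1, -0.0961 to 0.0093 for Col6a1/Col6a2 and -0.0493 to 0.248 for Col6a3/Col6a1 between the irradiated groups, where Col1a1/Col3a1 was 0.00845 without the 3 libraries.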
